A study of Mus musculus with 4 samples.

Results

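The genes described here encode the proteins of the cytosolic ribosome in mouse liver. They were chosen by annotated symbol alone, as Rpl or Rps followed by a digit, or as Rplp0, Rplp1, Rplp2 and Rpsa, without the Rps6k kinases and without symbols marked as pseudogenes, and 1 value per gene was taken from the probe set with the highest mean over the 4 arrays. The rule found 48 genes among 12393 genes with a probe set of their own on the array, 26 of the large subunit and 22 of the small subunit. RefSeq lists 47 of them as protein coding and 1, Rps4l, as a transcribed pseudogene. Rps4l was kept because its symbol carries no such mark.

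Liver RNA came from 4 groups of male mice aged 12 to 20 weeks: PPARα-null mice on Wy14643, PPARα-null mice on control food, wild-type mice on Wy14643 and wild-type mice on control food. Wy14643, a synthetic agonist of the nuclear receptor PPARα, was mixed into the food at 0.1% (w/w) for 5 days. The null mice are labelled 129S4/SvJae and the wild-type mice 129S1/SvImJ, so the Ppara disruption and the substrain cannot be told apart. The group of wild-type mice on Wy14643 was read from the title and source name, because its description field carries the same words as that of the control group. All 6 measured PPARα target genes above background were 1.5-fold or more higher on that array than on the wild-type control array, beside 15.3% of all genes. In null mice 3 of the 6 were also 1.5-fold or more higher on Wy14643, beside 2.35% of all genes. RNA of 5 mice per group, by the series' design text, was pooled and hybridized to 1 Affymetrix MOE430A array per group. With 1 array per group there is no replicate error and no test, and this number sets the precision of every ratio given here.

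Ppara itself had an intensity of 428 in null mice on Wy14643, 326 in null mice on control food, 1250.1 in wild-type mice on Wy14643 and 847 in wild-type mice on control food; which part of the gene the probe set covers, relative to the deletion, is not given in the sources used here. All 8 measured hepatocyte markers were above background on each array, with summed intensities between 94961 and 101112; of these, Cps1 (log2 ratio −1.09) and Fgb (−0.62) were 1.5-fold or more lower on Wy14643 in wild-type mice. The median intensity over all probe sets lay between 14.2 and 14.6 on the 4 arrays. Background was put at an intensity of 13.6, the 90th percentile of 90 probe sets for genes not known to be expressed in liver.

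The cytosolic ribosome joins amino acids into protein. Its small subunit reads the mRNA, its large subunit forms the peptide bond and releases the chain through an exit tunnel, and each protein occurs once per ribosome except for the acidic proteins of the stalk. Most ribosomal protein mRNAs begin with a cytosine followed by an unbroken run of pyrimidines, the 5′ terminal oligopyrimidine (TOP) motif, through which mTOR signalling controls their translation. Mammalian genomes hold many processed copies of ribosomal protein genes, so that short array probes can bind several related transcripts.

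Of the 48 genes, 40 were above background on all 4 arrays, Rpl27a was above it on 3 arrays with intensities between 12.4 and 15.0, and 7 were below it on all 4. The 7 were Rpl12, Rpl14, Rps6, Rps25 and Rps27, which encode core proteins of the ribosome, and the paralogues Rpl3l and Rpl39l, known from muscle and from testis. The probe sets of these 7 genes give no level here and no fold is given for them. Another 102 probe sets carry several symbols with a ribosomal protein among them. They hold 44 such symbols, of which 30 occur only there, Rplp1 and Rpl5 among them, so these 30 genes were not measured as single genes. The members lie on 17 chromosomes.

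The array of wild-type mice on Wy14643 stood above the other arrays for most members. Of the 40 members above background on all arrays, 2 had their highest intensity on the null Wy14643 array, 7 on the null control array, 29 on the wild-type Wy14643 array and 2 on the wild-type control array. The lowest intensity fell on the null Wy14643 array for 19 members, on the null control array for 11, on the wild-type Wy14643 array for 4 and on the wild-type control array for 6. Such counts over all genes are not given here. Over all probe sets, log2 ratios with the wild-type Wy14643 array had standard deviations of 0.64 and 0.72, against 0.28 and 0.26 for the other pairs. The geometric mean over the 40 members was 2628 in null mice on Wy14643, 2710.0 in null mice on control food, 3188 in wild-type mice on Wy14643 and 2758 in wild-type mice on control food. The means of the null arrays and the wild-type control array lay close together.

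In PPARα-null mice, no member differed by 1.5-fold or more between Wy14643 and control food, the threshold that the study applied to unreplicated arrays. The background over all 7313 named genes above background was 2.35% higher and 4.53% lower at that threshold. Of 41 members that exceeded background on 1 or both arrays, 15 (36.6%) were higher on Wy14643 by any amount, beside 49.8% of all genes. Their median log2 ratio was −0.02, with values between −0.38 for Rpl37 and 0.30 for Rpl35, and the median over all genes was 0.00. The standard deviation of the members' log2 ratios in this pair was 0.16.

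In wild-type mice most members were slightly higher on Wy14643. Of 41 members, 33 (80.5%) were higher on Wy14643 than on control food, beside 51.4% of 7418 named genes, and the median log2 ratio was 0.20, a 1.15-fold higher intensity, against 0.02 over all genes. The middle part of the members, between the quartiles, ran from 0.02 to 0.43. Over all 48 genes, those below background included, 39 were higher. Only 3 members reached 1.5-fold higher and 1 reached 1.5-fold lower, 7.32% and 2.44% of the members, whereas 15.3% and 16.3% of all genes passed in these directions. The members were thus fewer past the threshold than genes in general while more of them lay above 0. Among the brightest genes, those with a mean intensity of at least 1000, 31 of 36 members were higher, beside 48.6% of 1025 genes.

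**Figure D1:**
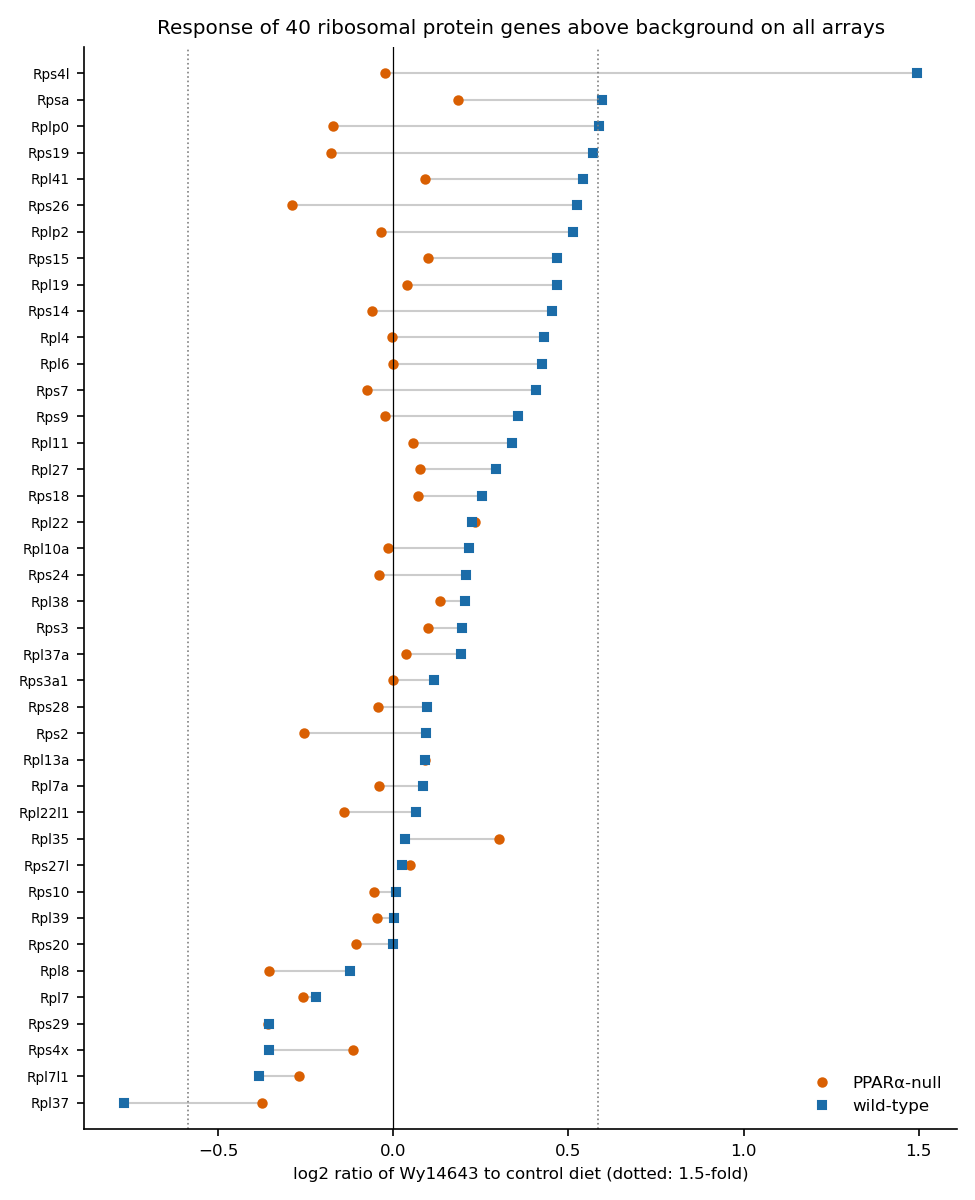
Log2 ratio of intensity on Wy14643 to that on control food (horizontal axis) for the 40 members above background on all 4 arrays, in PPARα-null (circles) and wild-type (squares) mice, 1 pooled array per group; dotted lines mark 1.5-fold. The wild-type point lies to the right of the null point for 34 of 40 members, and the null points stay between the dotted lines.

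Across the 40 members, 14 were higher on Wy14643 in both genotypes, 19 were lower in null and higher in wild-type mice, 7 were lower in both, and none was higher in null and lower in wild-type mice. The share of all genes in each of these classes is not given here, so the counts are not set against genes in general. The log2 ratios of the 2 genotypes, which share no array, had a Pearson correlation of 0.40 over these 40 genes and of 0.47 without Rps4l. Genes are not independent replicates, and this is a description only. The standard deviation over the members was 0.16 in null mice and 0.37 in wild-type mice (0.31 without Rps4l).

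The 2 measured proteins of the stalk, the flexible arm of the large subunit that recruits elongation factors, were among the members with the largest difference. Rplp0, which anchors the stalk to the ribosome, had intensities of 5500 in null mice on Wy14643, 6202 in null mice on control food, 8444 in wild-type mice on Wy14643 and 5622 in wild-type mice on control food. The wild-type Wy14643 array stood apart and the other arrays lay within a narrow band. Its log2 ratio for Wy14643 was −0.17 in null mice, whereas in wild-type mice its intensity on Wy14643 was 1.502 times that on control food (log2 ratio 0.59). Rplp0, also called 36B4, is a gene that the study used as a reference in its Q-PCR. The other, cyclophilin (Ppia), has no probe set of its own symbol here. Rplp2, an acidic protein of the stalk, had 6088 and 6234 in null mice on Wy14643 and control food, against 9007 and 6305 in wild-type mice on the same foods. Its log2 ratios for Wy14643 were −0.03 in null mice and 0.51 in wild-type mice.

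Several proteins of the small subunit also had their highest intensity on the wild-type Wy14643 array. Rpsa, known both as a small subunit protein and as the laminin receptor, had intensities of 1696 in null mice on Wy14643, 1491 in null mice on control food, 2082 in wild-type mice on Wy14643 and 1377 in wild-type mice on control food. Its log2 ratio for Wy14643 was 0.19 in null mice and 0.60, or 1.51-fold higher, in wild-type mice, so both pairs pointed one way. A second probe set of Rpsa was below background on all arrays. Rps19, a protein of the head of the small subunit and a gene of Diamond-Blackfan anaemia in humans, had 1386 and 1567 in null mice on Wy14643 and control food, against 2547 and 1717 in wild-type mice. Rps19 lay just under the threshold in wild-type mice at 1.48-fold higher. Rps26, which lies where the mRNA leaves the small subunit, had 3810.3 and 4651 in null mice on Wy14643 and control food, against 7031 and 4888 in wild-type mice. Its log2 ratios for Wy14643 were −0.29 in null mice and 0.52 in wild-type mice, which point opposite ways.

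**Figure D2:**
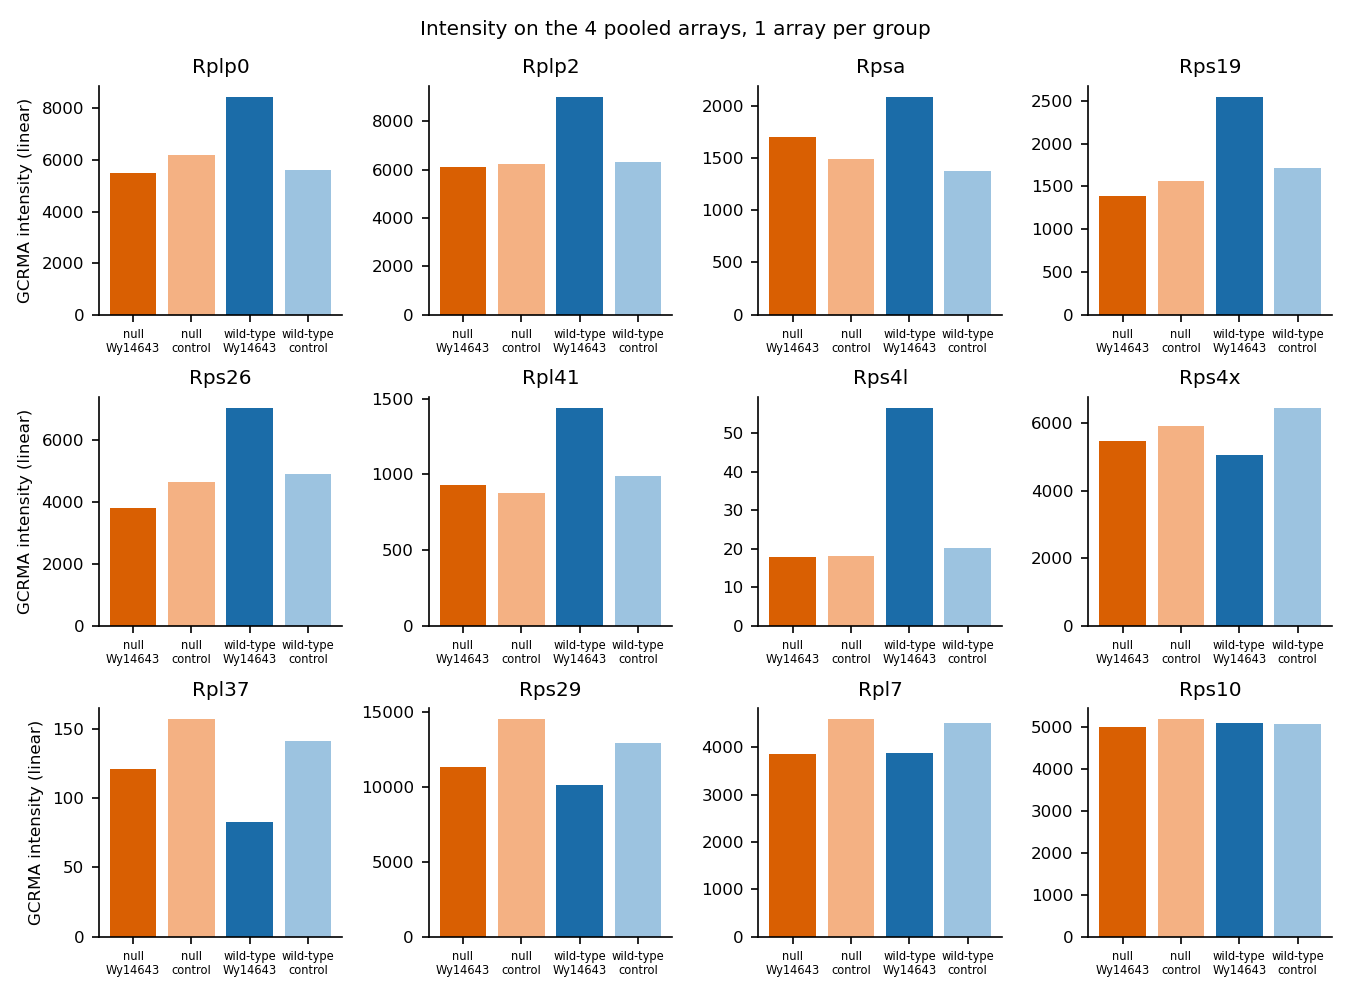
GCRMA intensity (linear axis from 0, each panel with its own scale) of 12 members on the 4 arrays, from left to right PPARα-null on Wy14643, PPARα-null on control food, wild-type on Wy14643 and wild-type on control food, 1 pooled array per bar. The third bar is the tallest for Rplp0, Rplp2, Rpsa, Rps19, Rps26, Rpl41 and Rps4l and the shortest for Rps4x, Rpl37 and Rps29; Rps10 is level across the arrays, between 4999 and 5191.

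Rpl41, a very short protein at the junction of the subunits, had 932 and 876 in null mice on Wy14643 and control food, against 1439 and 989 in wild-type mice. Its log2 ratio for Wy14643 was 0.09 in null mice and 0.54 in wild-type mice. Rpl11 forms the 5S ribonucleoprotein with Rpl5 and can bind the p53 regulator Mdm2. Rpl11 had 2048 and 1970.45 in null mice on Wy14643 and control food, against 2712.5 and 2147 in wild-type mice, with log2 ratios of 0.06 and 0.34 in the same order of genotypes. A further 6 members, Rps15, Rpl19, Rps14, Rpl4, Rpl6 and Rps7, had null log2 ratios between −0.07 and 0.10 and wild-type log2 ratios between 0.41 and 0.47; they were chosen for mention after their values were seen.

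A few members pointed the other way. Rpl37, a zinc-binding protein of the large subunit, had intensities of 121 in null mice on Wy14643, 157 in null mice on control food, 82.6 in wild-type mice on Wy14643 and 141 in wild-type mice on control food. On Wy14643 its log2 ratio was −0.38 in null mice and −0.77, or 1.70-fold lower, in wild-type mice, so that both pairs were lower. Its only probe set of its own symbol is of the kind that may bind several transcripts. Rps4x, the X-linked Rps4 gene, had 5481 and 5932 in null mice on Wy14643 and control food, against 5058 and 6462 in wild-type mice, log2 ratios of −0.11 and −0.35 in that order of genotypes. Rps29, a zinc finger protein of the head of the small subunit, had 11325 and 14522 in null mice on Wy14643 and control food, against 10089 and 12898 in wild-type mice. The Rps29 log2 ratios, −0.36 in null and −0.35 in wild-type mice, were the same to within 0.01. Rpl7 was lower on Wy14643 in both genotypes too, with log2 ratios of −0.26 in null and −0.22 in wild-type mice.

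Rps4l, the transcribed relative of Rps4x, had the largest ratio of the members above background. Its intensity was 17.9 in null mice on Wy14643, 18.2 in null mice on control food, 56.5 in wild-type mice on Wy14643 and 20.0 in wild-type mice on control food. The wild-type ratio was 2.82-fold, while 3 of the 4 values lay close to the background of 13.6. With 32 added to every intensity, its wild-type log2 ratio of 1.496 became 0.766. The other paralogues of core proteins differed little or went lower. Rpl22l1, the paralogue of Rpl22, had log2 ratios for Wy14643 of −0.14 in null and 0.06 in wild-type mice, and Rpl22 itself had 0.23 in null and 0.22 in wild-type mice. A dimmer probe set of Rpl22, marked _s_at, differed from this, with 0.09 in null and 0.90 in wild-type mice. Rps27l, a p53 target known as the paralogue of Rps27, had a wild-type log2 ratio of 0.02. Rpl7l1, the paralogue of Rpl7, had 188 and 227 in null mice on Wy14643 and control food, against 128 and 167 in wild-type mice, and was lower on Wy14643 in both genotypes.

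By place in the ribosome, all groups above background had positive wild-type medians. Over all genes above background, 51.4% were higher on Wy14643 in wild-type mice. The exit tunnel group (Rpl4, Rpl19, Rpl22, Rpl35 and Rpl39) had 5 of 5 members higher on Wy14643 in wild-type mice, with median log2 ratios of 0.04 in null and 0.22 in wild-type mice. The head of the small subunit had 6 of 8 higher in wild-type mice, with medians of −0.05 in null and 0.15 in wild-type mice. The body and platform of the small subunit had 8 of 9 higher, with medians of −0.06 in null and 0.36 in wild-type mice. All 22 large subunit members together had a wild-type median of 0.20 and the 19 small subunit members one of 0.21, so the subunits did not separate. Fau, a protein of the small subunit made as a ubiquitin-like fusion and outside the symbol rule, had 2189.7 and 2148 in null mice on Wy14643 and control food, against 2266 and 2162 in wild-type mice, and no ratio past 1.05-fold. Rack1, a scaffold protein of the small subunit that also lies outside the rule, has no probe set of its own symbol here.

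Set against wild-type mice on the same food, null mice on Wy14643 had lower intensities for most members. Of 41 members, 35 were lower and 6 were higher in null mice, whereas 51.4% of 7492 named genes were higher, and the median log2 ratio was −0.23, against 0.02 over all genes. No member was 1.5-fold or more higher in null mice, where 18.0% of genes were. The 5 members that were 1.5-fold or more lower, 12.2% of the members beside 17.0% of genes, were Rps4l (3.17-fold lower), Rps26 (1.84-fold lower), Rps19 (1.84-fold lower), Rpl41 (1.54-fold lower) and Rplp0 (1.54-fold lower). By mean intensity, 2 of 4 members under 1000 were lower in null mice (median log2 ratio 0.09), as were 20 of 20 between 1000 and 5000 (median −0.36) and 12 of 16 at 5000 or more (median −0.10).

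On control food the genotypes lay close together. No member differed by 1.5-fold or more in either direction, beside 2.55% of 7190 genes higher and 2.46% lower in null mice. Of 41 members, 14 were higher in null mice by any amount, beside 54.8% of all genes, and the median log2 ratio was −0.03 against 0.02 over all genes. The members ranged from −0.33 for Rpl39, an exit tunnel protein, to 0.44 for Rpl7l1. Rplp0 was at 0.14 and Rps26 at −0.07.

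The difference of the responses, the log2 ratio for Wy14643 over control food in null mice minus that in wild-type mice, had a median of −0.20 over 41 members and of 0.00 over 7656 genes. It was above 0 for 7 members, beside 49.5% of all genes. No member was at or past 1.5-fold above 0, beside 16.3% of genes, and 4 were at or past 1.5-fold below it, beside 16.8%. These were Rps4l at −1.52, Rps26 at −0.81, Rplp0 at −0.76 and Rps19 at −0.75. The 4 largest values above 0 were those of Rpl37 at 0.40, Rpl35 at 0.27, Rps4x at 0.24 and Rpl27a at 0.15, the last of them at background. These comparisons share arrays with the ones above, so they give no further evidence for the same genes.

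For 19 members, 2 or more probe sets of the member's own symbol were above background on all arrays, which lets the ratios of 1 gene be set side by side. For 11 of the 19, all probe sets were higher on Wy14643 in wild-type mice, for Rpl7 and Rps20 all were lower, and for 6 (Rpl35, Rpl7l1, Rps10, Rps24, Rps29 and Rps9) they disagreed in sign. The range of log2 ratios within a gene had a median of 0.26, larger than the median response of the members. Rps14 had 0.45 and 0.86 for its 2 probe sets, and Rps29 had values from −0.35 for the brightest to 0.32 for the dimmest of its 3. Over all 77 member probe sets above background, 59 were higher with a median of 0.15. Probe sets whose suffix marks possible binding to several transcripts (_x_at) had 24 of 37 higher and a median of 0.06, and the 2 marked _s_at were both higher with a median of 0.63. Those ending in _a_at had 24 of 27 higher and a median of 0.18, and those ending in _at alone had 9 of 11 higher and a median of 0.32. Of 88 probe sets with several symbols that were above background, 35 were higher on Wy14643 in null mice, with a median of −0.06, and 67 in wild-type mice, with a median of 0.17. Shares over all probe sets above background, or by suffix, are not given here for any of these counts.

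**Figure D3:**
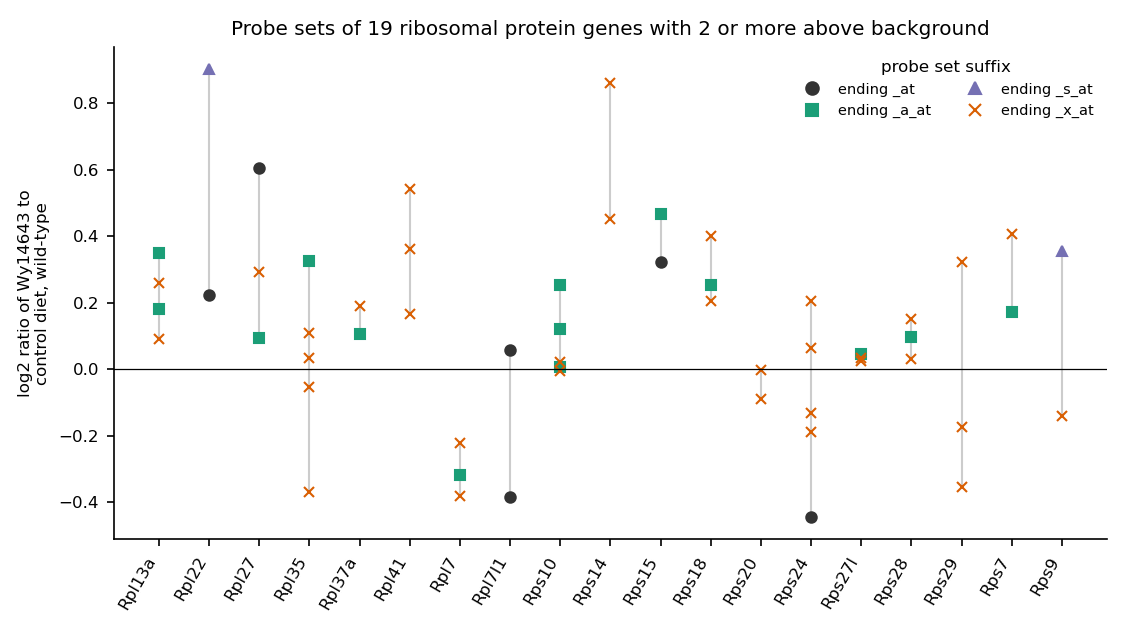
Log2 ratio of Wy14643 to control food in wild-type mice (vertical axis) for each probe set above background of the 19 members with 2 or more, 1 pooled array per group; symbols show the suffix of the probe set and grey lines join the probe sets of a gene. Rpl7 and Rps20 lie below 0 throughout, and the probe sets of Rpl35, Rps24 and Rps29 lie on both sides of 0.

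The start sites of the members were read from the RefSeq promoter table (assembly GRCm38.p6, the C57BL/6J reference, not the strains used here), which held 42 of the 48. A run of 8 or more pyrimidines that touched the start base or 1 of the 5 bases on either side of it was present in 18 of 42 members (42.9%), beside 11.5% of 17492 protein-coding genes, 10.1% of 69 mitochondrial ribosomal protein genes and 21.2% of 33 translation factor genes. The 9 windows printed here hold 12 bases before the annotated start and 13 from it on, written 5′ to 3′ on the strand of the gene. Capitals mark the longest pyrimidine run that touches the start or its 5 neighbouring bases. They were chosen to set long runs (the first 6) beside short runs (the last 3) in members whose responses are given above, or, for Rps18 and Rpl19, further members with long runs.
Rplp2, chr7:141447639-141447663, plus strand: gtcagcgTCTTCCTTTCgccgccgg
Rpl19, chr11:98026912-98026936, plus strand: gCTCTCCCCTTCgcagataatgggc
Rps26, chr10:128626494-128626518, minus strand: gggcaagccgccggaTCCTCTTTCg
Rps18, chr17:33955653-33955677, minus strand: gtcacttccgCTCTCTCTTCCacag
Rpl35, chr2:39005119-39005143, minus strand: ccccgCCCTTTCCTCTTTCTCTCga
Rps10, chr17:27635232-27635256, minus strand: ccgcgcacgCCCCTTCCTTTCCagc
Rplp0, chr5:115559455-115559479, plus strand: ttcgggTTTCgaggaccgcctggtt
Rpsa, chr9:120127754-120127778, plus strand: ggttaTTTaaggacgtcatttccgg
Rps4x, chrX:102189379-102189403, minus strand: aggctgggcggagcaaCCCaggctc

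The 3 windows with short runs came from members with high and low responses, and the long runs from members whose wild-type ratios were above 0. Rps10 has a run of 13 pyrimidines and a wild-type log2 ratio of 0.01, Rplp2 has a run of 10 and a ratio of 0.51, and Rplp0 has a run of 4 and a ratio of 0.59. Among members above background on all 4 arrays, 14 of 14 with a run of 8 or more were higher on Wy14643 in wild-type mice. Their median was 0.21. Of such members with a shorter run, 17 of 20 were higher, with a median of 0.22. Rpl27a, above background on 3 arrays, was left out of these counts. It has a run of 20 and a wild-type log2 ratio of −0.002. Over all genes above background on 1 or both wild-type arrays, 51.4% were higher. The annotated start can lie some bases away from the start used in liver, so a short run says only that these letters are not in this window. The same table was searched, from 250 bases before each start to 50 after it and on both strands, for 2 copies of AGGTCA 1 base apart, the repeat that PPARα binds with RXR. It was present in 0 of 42 members and in 10 of 17492 protein-coding genes (0.0572%), so the window holds too few matches to tell the members from other genes.

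Other genes of the translation apparatus were set beside the members. The first list held 74 mitochondrial ribosomal protein genes, which serve the separate ribosome of mitochondria. Of the 73 above background in null mice, 29 were higher on Wy14643, beside 49.8% of all genes, with a median log2 ratio of −0.03. In wild-type mice 65 of 74 had a higher intensity on Wy14643, 30 of them by 1.5-fold or more, beside 51.4% and 15.3% of all genes, with a median of 0.43. Mrpl17 at 1.46 and Mrps18b at 1.40 were the highest in wild-type mice, and Mrpl23 at −0.39 and Mrpl2 at −0.33 were the lowest. Their wild-type median was about the upper quartile of the cytosolic members, and the difference between these lists was not tested. Of 35 cytosolic translation factor genes, 29 were higher in wild-type mice and 8 of them by 1.5-fold or more, beside 51.4% and 15.3% of all genes, with medians of −0.04 in null and 0.24 in wild-type mice. Eif3d and Eif3m, subunits of the initiation factor that binds the small subunit, were highest at 1.13 and 1.12, and Eif4b and Eif5 were lowest at −0.41 and −0.20.

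**Figure D4:**
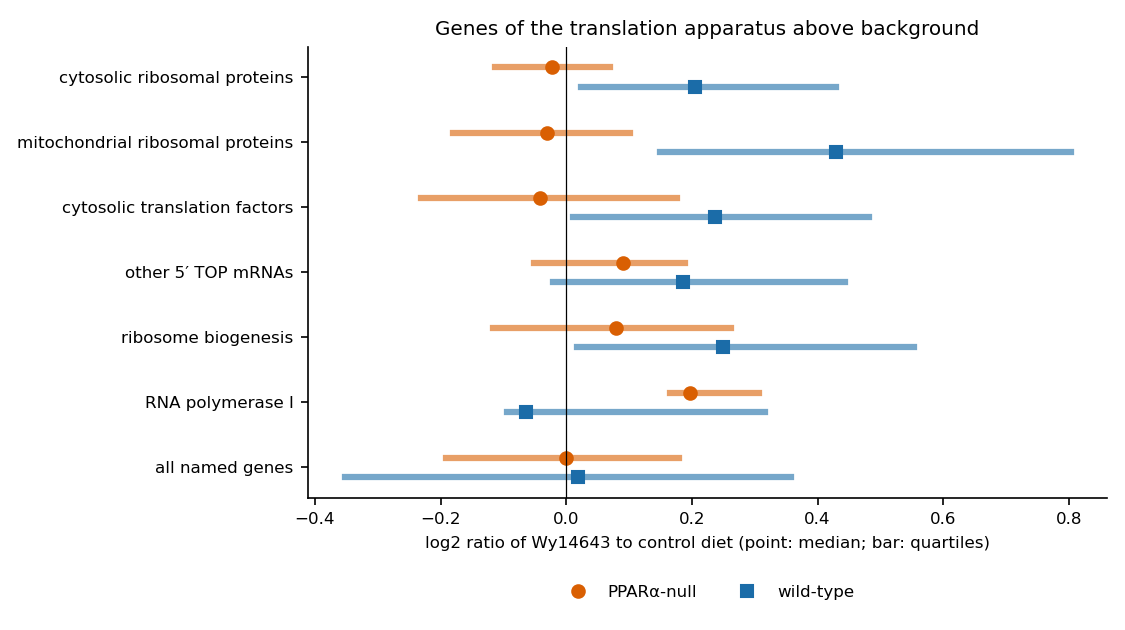
Median (point) and quartiles (bar) of the log2 ratio of Wy14643 to control food for the cytosolic ribosomal proteins, 5 related gene lists and all named genes above background, in PPARα-null (circles) and wild-type (squares) mice, 1 pooled array per group. In wild-type mice the median is 0.20 for the cytosolic and 0.43 for the mitochondrial ribosomal proteins, −0.06 for RNA polymerase I and 0.02 for all genes. Some genes are in more than 1 of the related lists.

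Genes that build ribosomes were spread more widely. Of 34 ribosome biogenesis genes above background, 20 were higher on Wy14643 in null mice (49.8% of all genes), with a median of 0.08. By 1.5-fold or more, 3 of them were higher (2.35% of all genes). In wild-type mice 26 were higher (51.4% of all genes), 8 of them by 1.5-fold or more (15.3% of all genes), and 2 were 1.5-fold or more lower (16.3%), with a median of 0.25 that became 0.14 with 32 added to every intensity. Nhp2, of the particle that guides pseudouridine formation in rRNA, was highest at 2.38, followed by Bysl, an assembly factor of the small subunit, at 1.17. Emg1, an rRNA methyltransferase, was lowest at −1.15, and Heatr1, which acts in rRNA synthesis and processing, was at −0.78. Of 13 RNA polymerase I genes, the enzyme and factors that make rRNA, 10 were higher on Wy14643 in null mice (49.8% of all genes), with a median of 0.20. In wild-type mice 6 were higher (51.4% of all genes), with a median of −0.06, or −0.03 with 32 added to every intensity. Polr2e, a subunit shared by all 3 nuclear RNA polymerases in mammals, at 0.84 and Rrn3, an initiation factor, at 0.50 were the highest in wild-type mice, and Taf1d at −0.15 and Polr1c at −0.14 the lowest. Of 16 other mRNAs with a TOP motif, 11 were higher in each genotype, beside 49.8% of all genes in null and 51.4% in wild-type mice. Their medians were 0.09 in null and 0.19 in wild-type mice. Several of these 16, such as Eef2 and Eif4b, are also in the translation factor list, and Npm1 is also in the ribosome biogenesis list. The lists thus overlap and are not separate evidence. Nap1l1 at 1.31 and Pabpc1, the poly(A) binding protein, at 0.86 were highest in wild-type mice, and Hnrnpa1 at −0.51 and Eif4b at −0.41 lowest.

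Among 13 regulators of ribosomal protein synthesis, 9 had a higher intensity on Wy14643 in wild-type mice, beside 51.4% of all genes. By 1.5-fold or more, 1 was higher and 2 were lower, beside 15.3% and 16.3% of all genes. Mtor, the kinase that controls translation of TOP mRNAs, had an intensity of 109.5 in null mice on Wy14643, 122 in null mice on control food, 379 in wild-type mice on Wy14643 and 161 in wild-type mice on control food, a log2 ratio for Wy14643 of −0.16 in null and 1.23 in wild-type mice. Tsc1, which restrains mTOR, had 78.5 and 68.4 in null mice on Wy14643 and control food, against 31.998 and 59.2 in wild-type mice, a wild-type log2 ratio of −0.89. Gtpbp4, a GTPase of large subunit assembly, was at −0.59 in wild-type mice. The second highest, Mycn, was at 0.57 in wild-type mice, with intensities of 18.4 on Wy14643 and 12.4 on control food, close to background. Tsc2, chosen after its value was seen, was at −0.41 in null and 0.28 in wild-type mice. The list as a whole was not tested.

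Markers of other cells also differed between the arrays, not all in the pattern of the members. Kupffer cell markers were lower on Wy14643 in both genotypes. In null mice 9 of 9 above background were 1.5-fold or more lower, beside 4.53% of all genes. In wild-type mice 7 of 8 were, beside 16.3% of all genes. The summed intensity of the 11 measured was 676 in null mice on Wy14643, 1320.0 in null mice on control food, 442 in wild-type mice on Wy14643 and 1109 in wild-type mice on control food. Of 16 measured proliferation genes, 6 were above background on the null Wy14643 array, 5 on the null control array, 13 on the wild-type Wy14643 array and 6 on the wild-type control array. Their sums were 995 and 872 in null mice on Wy14643 and control food, against 1741 and 893 in wild-type mice. Summed stellate cell markers were 2249 and 1706 in null mice on Wy14643 and control food, against 836 and 1561 in wild-type mice, and summed neutrophil markers 1086 and 802 against 120.0 and 586 in the same order. Of 7 measured neutrophil markers, 3 were above background in wild-type mice, with a median log2 ratio of −0.08. By 1.5-fold or more, 1 of these 3 was lower, at −3.21, beside 16.3% of all genes. In null mice 3 of 5 were 1.5-fold or more higher, beside 2.35% of all genes. Sinusoidal endothelial markers summed to 737 and 1589 in null mice, against 829 and 1482 in wild-type mice. By 1.5-fold or more, 6 of 9 were lower on Wy14643 in null mice, beside 4.53% of all genes, with a median of −0.87. In wild-type mice 2 of 9 were, beside 16.3% of all genes, with a median of −0.33, and 3 of the 9 were higher by any amount, beside 51.4% of all genes. Of 12 lymphocyte markers, between 2 and 6 were above background on an array, with sums between 132 and 203, and bile duct and erythroid markers summed to between 45 and 66 on each array. Ribosomal protein mRNAs occur in all cells, so a change in the makeup of the tissue and a change in RNA per cell cannot be told apart in pooled liver. The part of these markers in the ribosomal protein ratios was not tested.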

How the data were processed

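Liver RNA of 4 groups of mice, pooled within each group, was measured on 1 Affymetrix MOE430A array per group. Each deposited value is the linear intensity of a probe set after GCRMA, for which the submitters' processing notes name version 2.20; this method removes optical and sequence-dependent background, brings the arrays to 1 distribution by quantiles and condenses the probes of a set. Whether the 4 arrays were processed alone is not given in the sources used here. Values ran from 1.55 to 31270.2 on a linear scale and were converted to log2. Of 22690 probe sets, 64 controls were left out. A platform annotation table gave 20380 probe sets 1 gene symbol, 691 several and 1555 none, and probe sets with several symbols named no gene. Intensities were used to choose the probe set of a gene and to group genes by brightness, not to order the expression of different genes.

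For each gene, the brightest probe set was kept. Log2 ratios were taken for PPARα-null over wild-type mice on each food, for Wy14643 over control food in each genotype and for the difference of these responses, with genes counted past 1.5-fold where at least 1 array compared was above background. Over all probe sets, the standard deviation of the log2 ratio was 0.28 for Wy14643 over control food in null mice, 0.64 in wild-type mice, 0.72 between genotypes on Wy14643 and 0.26 on control food. No test was made, since no group has a second array, and the labels name no batch. The members and lists were chosen with earlier results of these data known. Genes named are members past 1.5-fold, the 4 with the largest difference of responses each way, stalk and 5S proteins, paralogues, Q-PCR reference genes and the 2 highest and lowest of each related list; others, such as Rps10, Rps29, Rps18 and Rpl19, were chosen after their values were seen. The calculation was tested on simulated data. Calculations ran in Python 3.11.15 (numpy 2.4.6, pandas 2.3.3), figures in matplotlib 3.10.9 and cyclic loess in limma 3.58.1 under R 4.3.3.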

Additional observations from a re-analysis of the deposited data

Results flagged for a closer look

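Rps26, of the small subunit, stood out because its 2 genotypes moved in opposite directions, each by more than 1.2-fold. Its log2 ratio of Wy14643 to control food was −0.288 in PPARα-null mice and 0.524 in wild-type mice. With 1 array per group the difference was not tested.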

How the results depend on the processing

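The median log2 ratio of the members kept its direction under the alternatives tried, apart from the PPARα-null response, which lay between −0.04 and 0.00. It ranged from 0.17 to 0.21 for Wy14643 in wild-type mice, from −0.34 to −0.20 between genotypes on Wy14643, from −0.08 to −0.02 on control food and from −0.27 to −0.17 for the difference of responses. The counts past the threshold depended on the setting. At 1.2-fold in place of 1.5-fold, 1 member was higher and 5 were lower on Wy14643 in null mice, 16 and 4 were so in wild-type mice, 2 and 20 were so in null mice set against wild-type mice on Wy14643, and 1 was higher and 2 were lower on control food. At that threshold the difference of responses had 2 members higher and 16 lower. The share of all genes past 1.2-fold is not given here, so these counts are not set against genes in general. Under cyclic loess, 1 member (Rps4l) in place of 3 was higher on Wy14643 in wild-type mice, with Rplp0 at 0.57. With the dimmest probe set above background of each gene, 5 were higher there, 8 were lower in null mice set against wild-type mice on Wy14643 and 7 were lower in the difference of responses. The count of 1 lower in wild-type mice, Rpl37, became 0 with a mean intensity of at least 200, of at least 1000 (added after the data were seen), or without probe sets marked _x_at and _s_at, since each of these settings leaves Rpl37 out. With 32 added, Rpl37 was at −0.59 and Rps4l at 0.77. Median centring, the median over a gene's probe sets, no background threshold, each array's own median as background and leaving out the paralogues kept all counts within 1.5 times. No paired analysis was possible because each group has 1 array. Differences of the size of the members' median response lie within the range between probe sets of 1 gene, and genes near an intensity of 13.6 have no measured ratio.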
